A study of Mus musculus with 8 samples.

Results

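The enzymes that write, read and remove DNA methylation are themselves encoded by genes that carry 5-hydroxymethylcytosine (5hmC), and the 9 described here were taken by symbol from the mm9 gene annotation (GENCODE mouse release 1): Tet1, Tet2, Tet3, Dnmt1, Dnmt3a, Dnmt3b, Dnmt3l, Tdg and Uhrf1. They are 9 of the 22367 protein-coding genes on the nuclear chromosomes. They were named by function and not by a cutoff on a measured value, but with earlier results of these data known. For each gene, every peak that touched the gene or the 10 kb on either side was taken from all 6 lists of 5hmC peaks, which gave 776 peaks. Positions are in bp from the transcription start site (TSS), negative upstream, along the direction of transcription. The TSS is the outermost annotated start of the gene, and exon numbers are those of its reference transcript.

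5hmC was mapped by GLIB-Seq, in which a glucose is put on each 5hmC, opened with periodate and coupled to biotin so that the fragments that carry it can be pulled down and sequenced. There was 1 library for each condition: embryonic stem cells (ESC) of the E14 line, mouse embryonic fibroblasts (MEF) of the C57BL/6 strain, labelled embryonic day 11 although the methods state a later day, brain and liver of adult C57BL/6 mice of 8 weeks, and E14 ESC transfected with a short hairpin against GFP (shGFP) or against Suz12 (shSuz12), a core subunit of Polycomb repressive complex 2. The transfected cells were kept under puromycin, the sources used here do not say which Suz12 hairpin the library came from, and the number of animals or embryos behind each tissue is not given in them. The strain of the ESC line differs from that of the tissues, so strain and cell type cannot be told apart. Peak lists hold no expression, so neither the labelled cell types nor the loss of Suz12 could be checked here, and the RNA-Seq libraries of the transfected cells were not analysed here. With 1 library per condition there is no replicate spread, no difference between libraries was tested, and all comparisons are descriptions of these 6 lists.

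Methyl groups are placed on CpG by Dnmt3a and Dnmt3b, the de novo methyltransferases, with Dnmt3l, a relative without catalytic activity, as their cofactor in germ cells and early embryos. Dnmt1 copies methylation onto the new strand after replication, and Uhrf1 brings it to hemimethylated CpG. Tet1, Tet2 and Tet3 oxidise 5-methylcytosine to 5hmC and on to 5-formylcytosine and 5-carboxylcytosine, which the glycosylase Tdg cuts out of the DNA. Tet1, Dnmt3b and Dnmt3l are known for their high expression in ESC, whereas Tet3 is best known from the oocyte, the zygote and the brain.

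The sequences below show the DNA under the peaks on which the description turns, taken from the mm9 genome and written on the strand of the gene with each CpG in capitals. For Tet1 and Tet3 the middle of the highest-scoring peak, an ESC peak in both genes, lay wholly in coding sequence. The Tet1 stretch (chr10:62302401-62302700, minus strand) was in exon 4, 59166 to 59465 bp from the TSS, with 5 CpG in 300 bp. The Tet3 stretch (chr6:83318551-83318850, minus strand) was in the last exon, exon 11, 72822 to 73121 bp from the TSS, also with 5 CpG.
Tet1, exon 4: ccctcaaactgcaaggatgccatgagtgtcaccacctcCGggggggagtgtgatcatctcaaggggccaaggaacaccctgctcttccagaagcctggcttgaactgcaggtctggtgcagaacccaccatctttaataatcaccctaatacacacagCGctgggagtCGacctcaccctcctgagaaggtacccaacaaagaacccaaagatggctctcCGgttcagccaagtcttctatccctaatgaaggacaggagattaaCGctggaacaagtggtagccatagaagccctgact
Tet3, exon 11: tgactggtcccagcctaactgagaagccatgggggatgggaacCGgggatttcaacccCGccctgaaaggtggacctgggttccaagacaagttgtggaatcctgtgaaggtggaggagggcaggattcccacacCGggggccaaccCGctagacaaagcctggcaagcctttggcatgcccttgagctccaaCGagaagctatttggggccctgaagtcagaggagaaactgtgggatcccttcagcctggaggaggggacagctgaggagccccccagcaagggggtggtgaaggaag

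The corresponding stretches of Dnmt3a, Dnmt3b and Tdg were intronic. That of Dnmt3a (chr12:3873553-3873852, plus strand) lay 67546 to 67845 bp from the TSS, held 5 CpG and was wholly under a peak in all 6 libraries. That of Dnmt3b (chr2:153476954-153477253, plus strand) lay 1768 to 2067 bp from the TSS, held 8 CpG and came from the liver list. That of Tdg (chr10:82096751-82097050, plus strand) lay 4178 to 4477 bp from the TSS, held 4 CpG, and was touched by a peak in all 6 libraries.
Dnmt3a, intron: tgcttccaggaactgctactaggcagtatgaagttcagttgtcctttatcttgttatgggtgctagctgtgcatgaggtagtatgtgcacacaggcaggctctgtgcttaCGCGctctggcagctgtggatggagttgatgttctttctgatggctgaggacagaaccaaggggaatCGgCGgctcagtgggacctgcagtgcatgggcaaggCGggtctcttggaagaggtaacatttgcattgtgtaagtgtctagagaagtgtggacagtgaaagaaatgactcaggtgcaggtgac
Dnmt3b, intron: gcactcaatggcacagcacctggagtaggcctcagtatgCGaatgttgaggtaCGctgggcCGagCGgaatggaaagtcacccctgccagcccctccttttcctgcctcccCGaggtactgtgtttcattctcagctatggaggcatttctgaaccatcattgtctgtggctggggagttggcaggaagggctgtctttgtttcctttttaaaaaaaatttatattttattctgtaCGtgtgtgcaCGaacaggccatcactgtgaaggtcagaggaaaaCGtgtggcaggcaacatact
Tdg, intron: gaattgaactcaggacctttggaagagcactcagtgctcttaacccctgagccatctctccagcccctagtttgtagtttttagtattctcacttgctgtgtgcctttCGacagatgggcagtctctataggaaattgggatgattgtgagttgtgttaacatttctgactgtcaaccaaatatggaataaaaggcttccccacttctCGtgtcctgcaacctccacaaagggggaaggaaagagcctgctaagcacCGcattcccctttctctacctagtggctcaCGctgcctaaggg

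A further 3 stretches, chosen after the values had been seen, show promoters whose peaks differed between libraries. Each is the middle of the promoter bases that were under a peak in the most libraries. The Dnmt3b promoter stretch (chr2:153474341-153474640, plus strand; -845 to -546 bp, 9 CpG) was under a peak in every library but MEF. The Dnmt3l stretch (chr10:77505284-77505583, plus strand; 592 to 891 bp, 6 CpG), in an intron, was under a peak in the 3 ESC libraries and in no other. The Uhrf1 stretch (chr17:56441856-56442155, plus strand; -888 to -589 bp, 3 CpG) was under a peak in ESC, shGFP and liver.
Dnmt3b, promoter: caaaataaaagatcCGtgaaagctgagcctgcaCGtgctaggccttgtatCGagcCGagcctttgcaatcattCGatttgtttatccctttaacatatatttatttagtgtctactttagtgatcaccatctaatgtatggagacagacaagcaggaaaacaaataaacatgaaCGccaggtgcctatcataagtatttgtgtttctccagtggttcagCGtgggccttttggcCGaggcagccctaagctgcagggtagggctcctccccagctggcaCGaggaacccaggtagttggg
Dnmt3l, promoter: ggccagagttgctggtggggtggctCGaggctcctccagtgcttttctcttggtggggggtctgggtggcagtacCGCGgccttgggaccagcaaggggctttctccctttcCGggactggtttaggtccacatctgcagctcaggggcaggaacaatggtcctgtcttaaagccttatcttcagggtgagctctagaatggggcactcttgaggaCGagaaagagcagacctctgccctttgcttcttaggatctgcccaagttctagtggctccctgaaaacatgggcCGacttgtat
Uhrf1, promoter: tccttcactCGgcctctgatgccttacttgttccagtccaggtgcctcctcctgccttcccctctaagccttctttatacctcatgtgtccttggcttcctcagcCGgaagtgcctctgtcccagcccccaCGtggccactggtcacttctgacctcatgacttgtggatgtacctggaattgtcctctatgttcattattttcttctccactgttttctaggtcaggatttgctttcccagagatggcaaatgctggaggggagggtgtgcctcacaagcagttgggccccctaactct

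The lists held between 130408 (liver) and 217025 (MEF) peaks on the nuclear chromosomes and covered between 83.5 Mb (shSuz12) and 208 Mb (MEF). The score of a peak, the value in the deposited lists, was taken as 10 times the negative log10 of the p-value given by the peak caller. The lists did not reach down to the same score: the lowest was 80 in ESC and liver, 50.02 in shGFP, 30.34 in shSuz12 and 30 in MEF and brain. Of the peaks, 34.1% in MEF, 21.1% in brain, 56.0% in shGFP and 17.0% in shSuz12 scored at least 80. A longer list, or more covered sequence, can therefore come with a lower limit, and these differences cannot be told apart from those between the cells. For that reason the genes are mostly described by their rank within each library. The cover of a gene is the percentage of its span under peaks, and its percentile is the percentage of protein-coding genes with less cover in the same library. Between 32.2% (ESC) and 42.1% (liver) of protein-coding genes had no cover, so a gene with any cover cannot rank below that share of its library.

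The 9 genes held 162 peaks in ESC, 113 in MEF, 121 in brain, 132 in liver, 127 in shGFP and 121 in shSuz12. Per 100 kb of gene and flank this was 23.5, 16.4, 17.5, 19.1, 18.4 and 17.5 peaks, against 11.6, 11.4, 10.2, 9.89, 8.72 and 9.13 over all protein-coding genes. Pooled over the 9 genes, peaks were thus denser than over all genes in each of the 6 lists. The pooled value rests largely on Dnmt3a and Tet3, with 52 and 37 of the 132 liver peaks and 35 and 32 of the 113 MEF peaks. It does not hold for each member: in liver Tet1 had 1 peak and Dnmt3l 0. Of the 776 peaks, 278 touched an exon, 351 lay in introns alone, 71 upstream and 76 downstream, and 67 touched another annotated gene. The median percentile of the 9 genes was 72.7 in ESC, 70.1 in MEF, 65.0 in brain, 65.1 in liver, 74.8 in shGFP and 78.6 in shSuz12, where all protein-coding genes have a median of 50 by construction. The highest percentile was 96.3, at Dnmt1 in shSuz12, and the lowest 0, at Dnmt3l in liver, where it had no peak.

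The ranks separated the ESC libraries from the differentiated ones at 6 of the 9 genes. Dnmt1, Dnmt3l and Uhrf1 ranked higher in each of the 3 ESC libraries than in MEF, brain and liver, and Tet3, Dnmt3a and Tdg ranked higher in each of the 3 differentiated libraries. Of the 17580 protein-coding genes with cover in any library, 11.7% had the first pattern and 14.9% the second. For Tdg the gap was narrow, with 70.8 in liver and 70.0 in shSuz12, and it closed when the lists were held to equal numbers of peaks. For Uhrf1 the pattern was lost at a common score of at least 80, where it had no cover in MEF, brain or shSuz12. Dnmt3l kept the pattern at that limit only narrowly, with 81.9 in MEF and 83.5 in shSuz12.

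**Figure D1:**
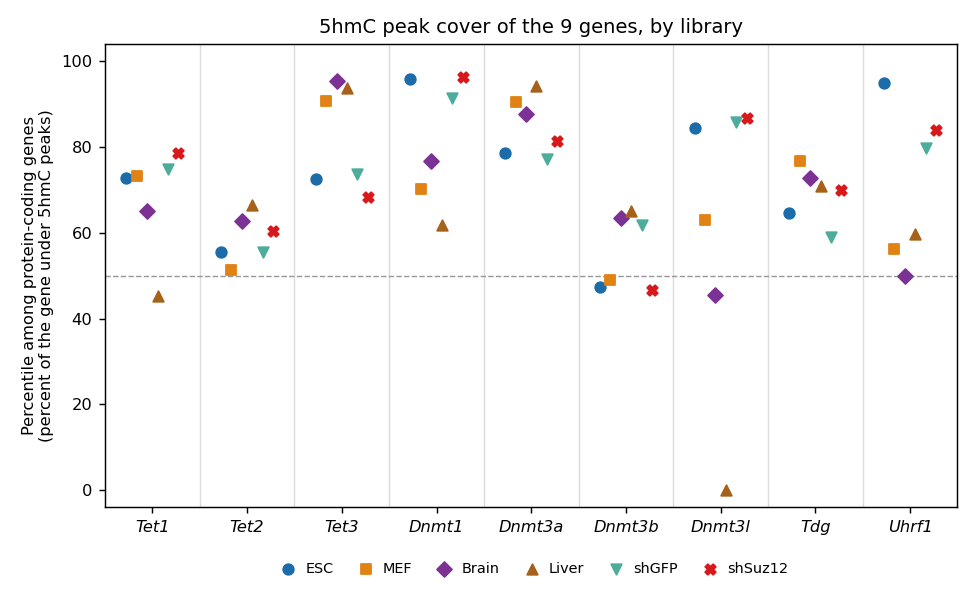
Percentile of each gene's 5hmC cover among all protein-coding genes (vertical axis, 0 to 100) in the 6 libraries, with 1 point per gene and library and a dashed line at 50. Tet3 and Dnmt3a were higher in MEF, brain and liver than in the 3 ESC libraries, Dnmt1, Dnmt3l and Uhrf1 were higher in the ESC libraries, and Dnmt3l had no cover in liver.

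Tet1, on chromosome 10 (62267318 to 62361866, minus strand, 94.5 kb), stood at percentile 72.7 in ESC, 73.2 in MEF, 65.0 in brain, 45.2 in liver, 74.8 in shGFP and 78.6 in shSuz12. Its cover was 27.4% in ESC and 1.64% in liver, with 14.9% in MEF, 15.2% in brain, 17.3% in shGFP and 13.1% in shSuz12. Liver was thus the low library, with a single peak over the whole window, while the other 5 libraries had 25 (ESC), 16 (MEF), 10 (brain), 23 (shGFP) and 26 (shSuz12). As 42.1% of protein-coding genes had no cover in liver, percentile 45.2 there was close to the lowest that a covered gene can have. The liver peak lay over exons 5 and 6, at 64590 to 66135 bp, and scored 267. In brain a peak at 63911 to 66370 bp (score 96.7) covered the same place, and peaks at 64636 to 65388 and 65486 to 66570 bp in ESC (262 and 153) and at 65520 to 66414 bp in shGFP (89.5) overlapped it. A further shGFP peak (63950 to 64518 bp, 56.2) ended just before it. MEF and shSuz12 had no peak there.

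The highest-scoring Tet1 peak in ESC, at 57088 to 61544 bp, spanned exon 4 with a score of 1888, above 99.2% of the ESC list. It was the site of the highest Tet1 score in brain (57217 to 60096 bp, 254) and in shGFP (57205 to 59934 bp, 299) as well. MEF had weaker peaks in it (57940 to 59067 bp, 122, and 59920 to 60774 bp, 44.6), and its own highest Tet1 score, 220, was in an intron at 51010 to 52245 bp. In shSuz12 the place was broken into 4 peaks between 57972 and 61611 bp with scores of 45.3, 45.3, 82.9 and 54.6, all below that of a peak on exon 7 (76317 to 77024 bp, 123). Exons 12 and 13, at the end of the gene, carried the next strongest ESC peak (85140 to 86795 bp, 1261), with counterparts in brain (85118 to 86461 bp, 80.1) and shGFP (84916 to 86714 bp, 267), and with 2 narrower peaks in shSuz12 (47.2 and 98.4). No MEF or liver peak overlapped the ESC peak there.

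At the TSS of Tet1 the only peak within 1 kb was in shGFP (-1378 to -899 bp, score 58.5), of which 102 bp fell within that distance. The start of 2 shorter coding transcripts, 19104 bp downstream, had no peak within 1 kb in any library, although an ESC peak (20384 to 21760 bp, 470) and an shGFP peak (20609 to 21772 bp, 109) lay on exon 2 just past it. Upstream of the gene there were ESC (-7702 to -6811 bp, 194), shGFP (3 peaks) and shSuz12 (2 peaks) peaks and none in the differentiated libraries. Tet1 had the fewest CpG around the TSS among the 9 genes, 1.15 per 100 bp within 1 kb, more than in 24.1% of protein-coding promoters.

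Tet2, on chromosome 3 (133126643 to 133207354, minus strand, 80.7 kb), ranked between percentile 51.3 (MEF) and 66.4 (liver), with 55.5 in ESC, 62.7 in brain, 55.5 in shGFP and 60.3 in shSuz12. Its cover was 12.3% in ESC, 4.86% in MEF, 13.8% in brain, 18.6% in liver, 6.27% in shGFP and 5.80% in shSuz12, from 13, 7, 12, 15, 11 and 9 peaks over the window. No library had a peak within 1 kb of its TSS, which lies in CpG-rich sequence (7.05 CpG per 100 bp, more than in 92.1% of protein-coding promoters). A second coding transcript starts 55719 bp downstream and is the reference one, and that start had peaks in all 6 libraries. Within 1 kb of it the covered length was 1688 bp in ESC, 585 in MEF, 812 in brain, 1173 in liver, 642 in shGFP and 316 in shSuz12.

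In ESC the inner start of Tet2 carried 2 adjoining peaks (55628 to 56857 bp, 493, and 56894 to 58992 bp, 777), the second being the highest Tet2 score of the list. In liver the highest Tet2 score, 492, was instead at 29320 to 31213 bp, over an exon of the long transcript, where ESC (29484 to 30293 bp, 121), brain (29833 to 31163 bp, 68.7), shGFP (29832 to 30494 bp, 66.6) and shSuz12 (29499 to 30108 bp, 51.3) also had peaks. Between the TSS and that exon liver had 7 peaks, with scores of 94.8 to 378, whereas ESC had 1 (6481 to 7062 bp, 98.8). Most liver peaks thus lay toward the start of the long transcript, and the highest ESC scores around and past the inner start. The last exon had a strong ESC peak (75852 to 78355 bp, 649) and the highest brain score (76195 to 78196 bp, 95.0).

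Tet3, on chromosome 6 (83312367 to 83391672, minus strand, 79.3 kb), ranked at percentile 90.8 in MEF, 95.5 in brain and 93.7 in liver, and at 72.5 in ESC, 73.7 in shGFP and 68.4 in shSuz12. Its cover was 32.3% in MEF, 54.0% in brain and 65.3% in liver against 27.3% in ESC, 16.4% in shGFP and 8.48% in shSuz12. The 3 differentiated libraries did not overlap the 3 ESC libraries on either scale. At a common score of at least 80 this held for the percentile but not for cover, which was 18.8% in MEF and 27.3% in ESC. With all peaks, 14.9% of protein-coding genes with cover in any library were split this way on percentile. For cover that share was not computed. The window held 32, 34 and 37 peaks in MEF, brain and liver and 21, 14 and 10 in ESC, shGFP and shSuz12. Of the 31 regions formed by merging overlapping Tet3 peaks of the 6 lists, 13 were found in differentiated libraries alone, 6 of these in all 3 of them, and 1 in ESC libraries alone. The downstream part of the window overlaps Bola3 (81542 to 92531 bp), a protein-coding gene of the other strand. A region there had ESC, MEF and liver peaks (86683 to 91689 bp, liver score 957). Those at 85175 to 86110 bp (liver) and 83372 to 84912 bp (brain and liver) also lay in Bola3. Part of these counts is thus that of a neighbour.

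The ESC signal of Tet3 was concentrated at its 3' end. A peak over exons 10 and 11 (70419 to 75525 bp) had a score of 3100, above 99.8% of the ESC list, and the next one (75741 to 78673 bp) a score of 1035, while the next highest ESC score of the gene was 363 (38545 to 39707 bp). The highest Tet3 scores of shGFP (71762 to 73941 bp, 576) and shSuz12 (72668 to 73685 bp, 148) were at the same end. In the differentiated libraries the highest scores lay further up the gene, in an intron in MEF (31073 to 33253 bp, 250) and over exon 3 in brain (35470 to 39577 bp, 306) and liver (34040 to 38255 bp, 1427). Liver also had a peak of 1226 over exons 10 and 11 (70436 to 74194 bp), so that the 3' end was marked there too. Upstream, a region from -11070 to -6132 bp had peaks in MEF, brain and liver, with a liver score of 1146, and none in the ESC libraries. Its inner edge overlaps B230319C09Rik, a long non-coding RNA gene of the other strand.

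**Figure D2:**
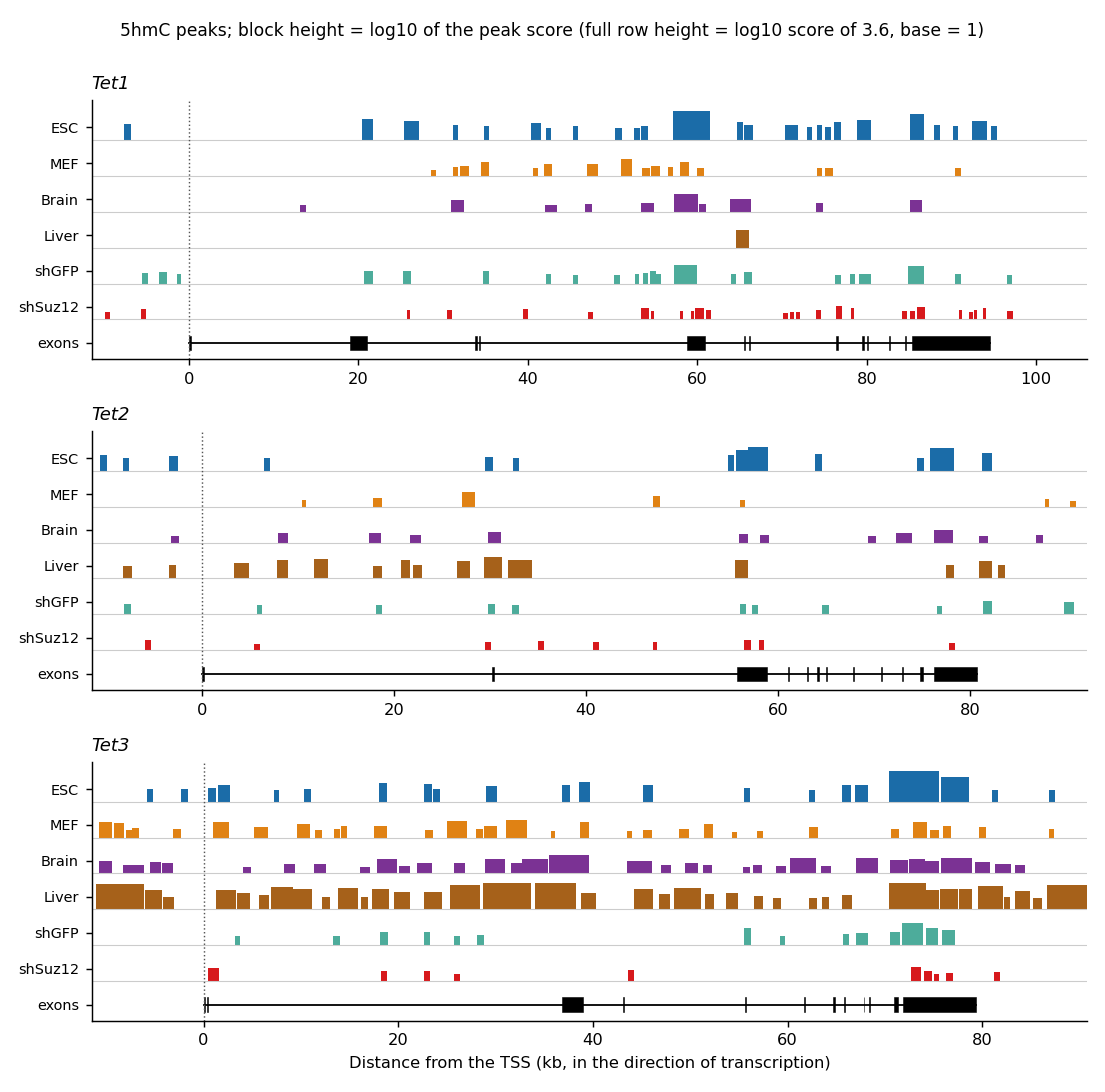
All 5hmC peaks of Tet1, Tet2 and Tet3 and the 10 kb on either side (horizontal axis, kb from the TSS) in the 6 libraries, with block height on a log10 scale of the score and exons in black. Tet1 had a single peak in liver, and Tet3 was filled with peaks in liver and brain while its ESC peaks were highest at the 3' end.

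Dnmt1, on chromosome 9 (20711650 to 20757317, minus strand, 45.7 kb), ranked at percentile 95.9 in ESC, 91.5 in shGFP and 96.3 in shSuz12, and at 70.1 in MEF, 76.7 in brain and 61.8 in liver. Its cover was 68.4% in ESC, 38.4% in shGFP and 33.8% in shSuz12 against 13.1% in MEF, 24.3% in brain and 13.9% in liver, so the ESC libraries were all above the others. The share of all genes in this order on cover was not computed. The window held 24, 20 and 27 peaks in ESC, shGFP and shSuz12 and 9, 10 and 7 in MEF, brain and liver. At a common score of at least 80 the order was kept for the percentile but not for cover or peak number: cover was 11.1% in shSuz12 and 13.9% in liver, with 7 peaks in each. The percentiles were then 95.9 in ESC, 92.3 in shGFP and 94.0 in shSuz12, and 81.0, 82.0 and 61.8 in MEF, brain and liver.

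In ESC the peaks covered most of Dnmt1, introns included: 91.9% of exonic and 65.3% of intronic sequence lay under a peak. Over all protein-coding genes it was 26.5% and 10.5%. Of the 24 ESC peaks, 14 touched an exon. The strongest covered exons 13 to 18 (25568 to 29481 bp, 2511), exons 34 to 39 (42318 to 46111 bp, 2136), exons 2 to 5 (9432 to 13374 bp, 1415) and exons 19 to 23 (30091 to 33585 bp, 1272). In shGFP the highest score was over exons 34 to 37 (42422 to 44728 bp, 404), the same end of the gene as in brain (exons 34 to 36, 42654 to 44100 bp, 135). In MEF no exonic base was covered: 6 of its 9 peaks lay in introns, 1 downstream and 2 upstream, where a peak at -9360 to -7379 bp had the highest score, 323. In liver the highest score, 634, was in an intron at 4292 to 6981 bp, a place where brain (4492 to 5914 bp, 119) and MEF (5054 to 6964 bp, 177) also had peaks. ESC had only a peak that overlapped the end of the liver peak (6853 to 7618 bp, 112). The upstream peak of shSuz12 (-6677 to -5403 bp, 148), its highest at Dnmt1, had counterparts in ESC (-6420 to -5225 bp, 421) and shGFP (-6495 to -5233 bp, 234). No library had a peak within 1 kb of the TSS.

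Uhrf1, on chromosome 17 (56442744 to 56462909, plus strand, 20.2 kb), ranked at percentile 95.0 in ESC, 79.7 in shGFP and 83.9 in shSuz12, and at 56.2 in MEF, 49.95 in brain and 59.8 in liver. Its cover was 65.1%, 21.5% and 16.5% in the ESC libraries and 6.66%, 6.41% and 12.0% in MEF, brain and liver. ESC had 18 peaks over the window, shGFP 8, shSuz12 7, liver 6, MEF 4 and brain 3. At a common score of at least 80 these counts were 18, 6, 0, 6, 0 and 0. The ESC library stood above the other ESC libraries here, by 3.09-fold over shGFP in bp covered over the window. In ESC the highest scores were over exons 12 to 15 (14324 to 17591 bp, 1149) and exons 8 to 11 (11279 to 13999 bp, 741), where shGFP had peaks of 138 (15658 to 16679 bp) and 74.6 (11500 to 12281 bp).

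In brain the 3 Uhrf1 peaks were low in score (35.8 at -3600 to -2803 bp, 54.8 at 4749 to 5294 bp and 32.4 at 15971 to 16716 bp), as were the 4 in MEF (52.8 at 2454 to 3177 bp, 37.1 at 18621 to 19239 bp, and 32.5 and 35.7 downstream). In liver the peak with the highest score was near the start (1257 to 3005 bp, 435), and 3 others downstream of Uhrf1, with scores of 248 to 366, lay in the neighbouring gene Kdm4b, which encodes a histone demethylase. Part of the liver cover over the window was thus that of a neighbour, as was that of the 4 ESC, 2 MEF and 1 shSuz12 peaks downstream. Upstream, the protein-coding gene Arrdc5 lies on the other strand from -9208 to -3035 bp. A place marked in ESC and shGFP (-9435 to -8452 bp, ESC score 540), an ESC peak (-6413 to -5092 bp, 296) and the upstream brain peak overlapped it. The ESC cover over the window was thus also partly that of neighbours. The promoter carried a peak in ESC (-1275 to -103 bp, 378), shGFP (-999 to -301 bp, 97.2) and liver (-1357 to -479 bp, 98.0). MEF, brain and shSuz12 had none within 1 kb.

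Dnmt3l, on chromosome 10 (77504692 to 77526367, plus strand, 21.7 kb), ranked at percentile 84.5 in ESC, 85.9 in shGFP and 86.7 in shSuz12, and at 63.0 in MEF, 45.6 in brain and 0 in liver. Its cover was 42.3%, 28.7% and 18.7% in the ESC libraries, 9.42% in MEF and 4.08% in brain. The 3 ESC libraries had 12, 16 and 7 peaks over the window, MEF 3, brain 5 and liver none. At a common score of at least 80 there were 12 in ESC, 8 in shGFP, 1 in shSuz12, 2 in MEF and 0 in brain. Of all protein-coding genes, 42.1% had no cover in liver and 39.3% had none in brain. MEF peaks were over exons 10 and 13 (12426 to 13430 bp, 112, and 17296 to 18331 bp, 124) and downstream (22122 to 22651 bp, 37.1). The peak over exon 13 was the place most often marked, with peaks also in ESC (17423 to 18120 bp, 93.1), brain (17529 to 18399 bp, 55.9), shGFP (17612 to 18283 bp, 65.7) and shSuz12 (17248 to 17998 bp, 98.7).

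The promoter of Dnmt3l was the most covered of the 9 in ESC, with 1780 bp within 1 kb of the TSS under a single peak (-779 to 1325 bp, 848), the highest Dnmt3l score of the list. In shGFP 2 peaks stood on either side of the TSS (-490 to -45 bp, 62.4, and 107 to 1306 bp, 145), leaving the TSS itself bare. In shSuz12 the peak began further downstream (482 to 1581 bp, 68.5), and in brain it ended just past the TSS (-786 to 13 bp, 44.8). The covered length within 1 kb was 1340 bp in shGFP, 519 in shSuz12, 800 in brain, and 0 in MEF and liver. The TSS used here is that of a transcript not annotated as coding, and the coding reference transcript starts 340 bp downstream. That coding start lay under the ESC peak and the second shGFP peak, but not under the brain or shSuz12 peak. This promoter lies within Aire, which is transcribed from the other strand and encodes the autoimmune regulator of the thymus, so these peaks belong to both genes by position. A strong upstream peak in ESC (-7919 to -6846 bp, 599), shared with shGFP (-7912 to -6748 bp, 250) and weakly with brain (31.5) and shSuz12 (40.2), also lay in Aire.

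**Figure D3:**
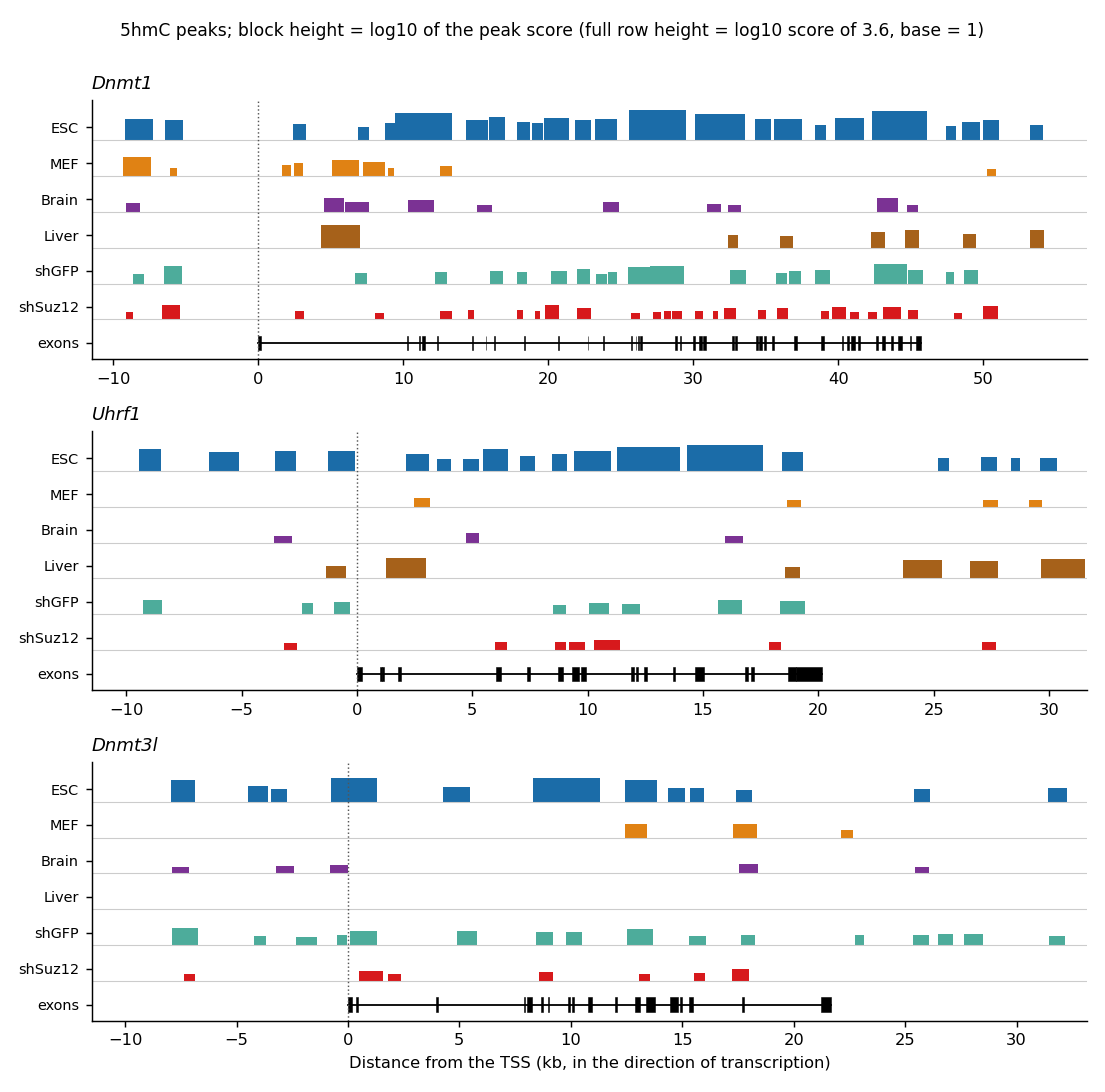
All 5hmC peaks of Dnmt1, Uhrf1 and Dnmt3l and the 10 kb on either side (horizontal axis, kb from the TSS) in the 6 libraries, with block height on a log10 scale of the score and exons in black. Each of the 3 genes had more peaks in each ESC library than in MEF, brain or liver, most narrowly Uhrf1 with 7 in shSuz12 and 6 in liver, and Dnmt3l had none in liver. The lists end at different scores, and at a common score of at least 80 this held for none of the 3 genes. Uhrf1 then had 0 peaks in shSuz12 and 6 in liver, Dnmt3l 1 in shSuz12 and 2 in MEF, and Dnmt1 7 in both shSuz12 and liver.

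Dnmt3a, on chromosome 12 (3806007 to 3914443, plus strand, 108 kb), was the member with the most peaks, 220 over the 6 lists. It ranked at percentile 90.6 in MEF, 87.8 in brain and 94.1 in liver, and at 78.6 in ESC, 77.3 in shGFP and 81.4 in shSuz12. Its cover was 66.3% in liver, 37.4% in brain, 33.96% in ESC, 31.8% in MEF, 19.5% in shGFP and 14.9% in shSuz12. On cover the ESC library therefore lay between brain and MEF, while on rank all 3 differentiated libraries were above all 3 ESC libraries. Of its 42 merged regions, 11 had a peak in all 6 libraries, more than at any other member.

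The strongest place was the same in 4 libraries: over exons 5 and 6, 66343 to 69047 bp in ESC (1365), 66361 to 69023 bp in brain (238), 66340 to 69263 bp in liver (1109) and 67170 to 69095 bp in shGFP (415). MEF (66265 to 68589 bp, 153) and shSuz12 (67096 to 68139 bp, 126) had peaks there too. Their own highest scores were in introns, at 16782 to 19379 bp in MEF (462) and 22726 to 24155 bp in shSuz12 (146). In liver, strong peaks also filled the first intron, led by 11446 to 14512 bp (1003) and 16050 to 19345 bp (911). At the outermost TSS, brain (-703 to 239 bp, 94.0) and liver (-817 to 92 bp, 131, and -1702 to -825 bp, 112) had promoter peaks that crossed the TSS or lay beside it, over 943 and 1086 bp, and the other 4 libraries had none. That TSS belongs to a retained-intron transcript. The coding reference transcript starts 1023 bp downstream and was not reached by these peaks. Within 1 kb of it 217 bp were covered in brain, 70 bp in liver and 0 bp in the other 4 libraries. A shorter coding transcript starts 85737 bp downstream, and within 1 kb of that start 849 bp were covered in brain, 207 bp in liver and 0 bp in the other 4 libraries.

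Dnmt3b, on chromosome 2 (153475186 to 153513466, plus strand, 38.3 kb), had few peaks in every library: 5 in ESC, 3 in MEF, 6 in brain, 8 in liver, 6 in shGFP and 3 in shSuz12. It ranked at percentile 47.2, 49.0, 63.3, 65.1, 61.9 and 46.7, respectively, with a cover of 7.12%, 4.09%, 14.1%, 17.3%, 9.09% and 2.33%. ESC and shGFP, both without knockdown, lay 14.7 percentile points apart at this gene, almost as far as ESC and liver (17.8). Its promoter had a peak in ESC (-1139 to -73 bp, 365), brain (-1217 to -226 bp, 45.0), liver (-1278 to -99 bp, 296), shGFP (-1006 to -209 bp, 186) and shSuz12 (-1249 to -392 bp, 81.6). The peaks ended before the TSS in all 5 libraries, and MEF had none there. They overlap 7530422B04Rik, a non-coding transcript of the other strand.

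Just inside Dnmt3b, a pair of neighbouring places were marked. The first held peaks in liver (732 to 3103 bp, 596), brain (899 to 2282 bp, 99.0) and shGFP (1358 to 2406 bp, 59.0), and the second in ESC (2488 to 4478 bp, 551), shGFP (2517 to 4408 bp, 396), liver (3170 to 4929 bp, 316) and shSuz12 (2796 to 3688 bp, 62.1). MEF had neither. The remaining gene body was nearly bare in ESC, with 1 peak (14723 to 15458 bp, 123) and no covered exonic base, while brain had 4 weaker peaks over exons 5, 8, 18 to 19 and 23, with scores of 30.5 to 83.2. The MEF peaks were at -8867 to -7959 bp (36.5), a place also marked in ESC (141), shGFP (153) and shSuz12 (35.0), and at 15585 to 16476 bp (45.3) and 19047 to 19719 bp (63.4). Liver had peaks at 8750 to 10017 bp (156), 12904 to 13834 bp (103) and, across the end of the gene and past it, at 38006 to 38943 (151), 40077 to 40747 (82.8) and 44985 to 46544 bp (275). That last place also had a peak in ESC (154) and shGFP (146), and shGFP had 1 more over exon 23 (36603 to 37140 bp, 80.4).

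Tdg, on chromosome 10 (82092573 to 82113544, plus strand, 21.0 kb), had 23 peaks in all, 4 in ESC, 4 in MEF, 3 in brain, 6 in liver, 2 in shGFP and 4 in shSuz12. It ranked at percentile 64.5, 76.6, 72.7, 70.8, 59.1 and 70.0, with a cover of 19.4%, 17.1%, 20.8%, 23.7%, 7.75% and 9.11%. The first intron was marked in all 6 libraries. There ESC had 3566 to 5089 bp (328), brain 3106 to 5726 bp (153), liver 3099 to 4439 (249) and 5017 to 5767 bp (87.6), and shGFP 3334 to 4375 bp (94.8). MEF had 2833 to 3411 (36.6) and 4276 to 5003 bp (35.7), and shSuz12 had 3 peaks of 45.3 to 46.5 between 3455 and 5643 bp.

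Closer to the start of Tdg, ESC (1388 to 2361 bp, 215), MEF (618 to 2081 bp, 119) and liver (1256 to 2239 bp, 126) had peaks, and the MEF peak was the only one of any library within 1 kb of the TSS, over 383 bp. Exon 2 was under a peak in ESC (8863 to 9640 bp, 138) and MEF (9019 to 9839 bp, 35.8). The 3 ESC libraries alone had a peak at exons 5 and 6, reaching exon 7 in ESC and shGFP (14110 to 14900 bp, 106, in ESC, 14240 to 14823 bp, 105, in shGFP, and 14310 to 14746 bp, 43.5, in shSuz12). Brain (15904 to 16846 bp, 50.4) and liver (15902 to 16826 bp, 153) shared an intronic peak that the others lacked. Brain had 1 further peak (13207 to 13996 bp, 39.6) and liver 2, over exons 8 and 9 (17370 to 18336 bp, 115) and downstream in Glt8d2 (23198 to 23847 bp, 86.6).

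**Figure D4:**
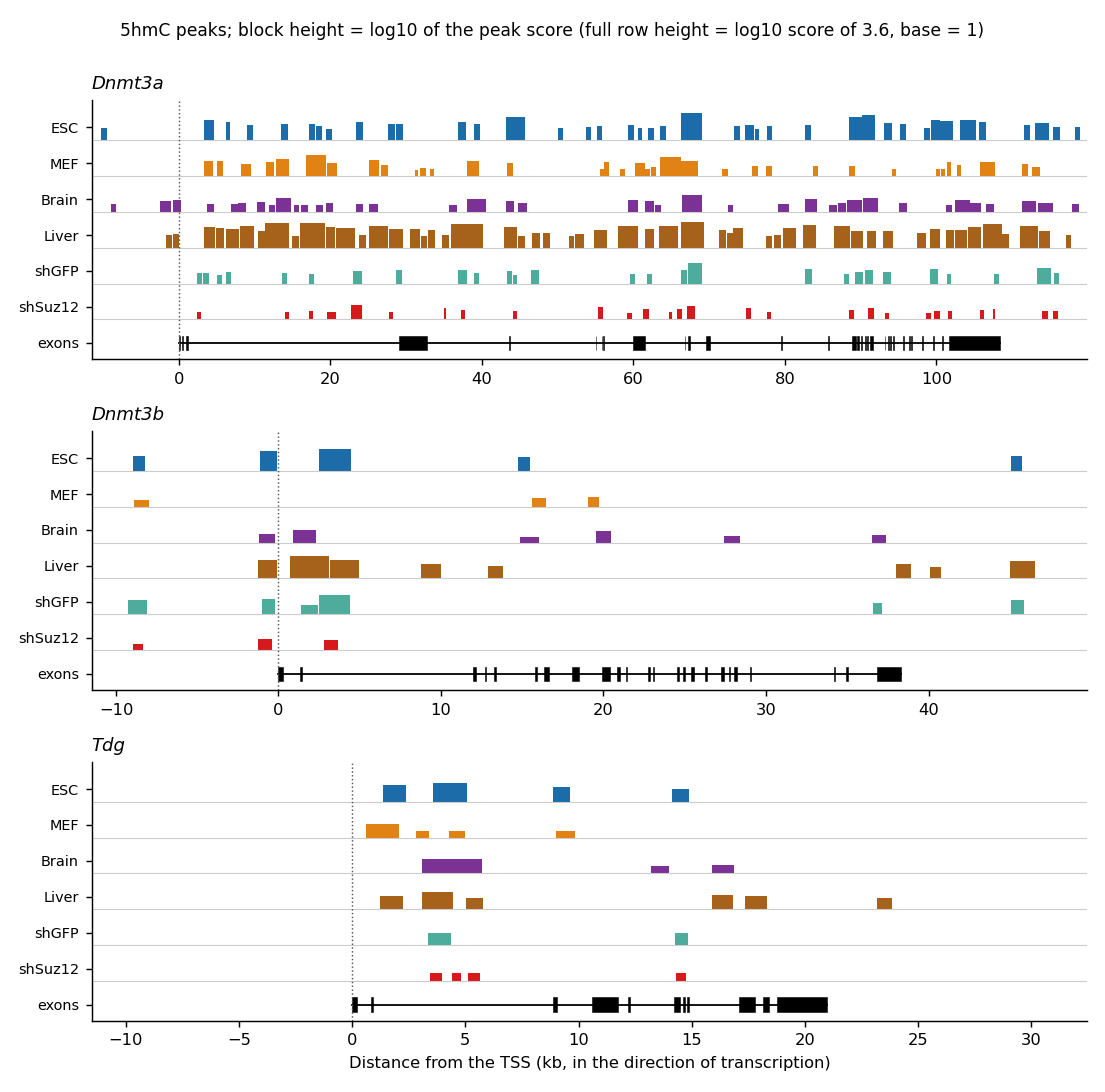
All 5hmC peaks of Dnmt3a, Dnmt3b and Tdg and the 10 kb on either side (horizontal axis, kb from the TSS) in the 6 libraries, with block height on a log10 scale of the score and exons in black. Dnmt3a was marked along its length in every library and most densely in liver, while Dnmt3b and Tdg had between 2 and 8 peaks per library.

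A peak within 1 kb of the TSS was found at 4 of the 9 genes in ESC (31.9% of all protein-coding genes), 2 in MEF (30.1%), 3 in brain (20%), 3 in liver (29.4%), 4 in shGFP (27.1%) and 3 in shSuz12 (21.4%). With 9 genes, 1 gene more or fewer moves such a share by over 10 percentage points. The TSS base itself lay under a peak at Dnmt3l in ESC (11.8% of all genes), at Dnmt3a and Dnmt3l in brain (4.46%) and at Dnmt3a in liver (5.38%). It was bare at all 9 genes in MEF (6.87%), shGFP (11.2%) and shSuz12 (5.83%). The outermost starts of Dnmt3a and Dnmt3l belong to transcripts not annotated as coding, so these counts do not describe their coding starts. When any annotated transcript start was allowed, the counts were 8 in ESC (45.4% of all genes), 7 in MEF (40.6%), 7 in brain (34.9%), 6 in liver (39.9%), 7 in shGFP (39.4%) and 8 in shSuz12 (34.7%). The members have between 1 and 18 annotated transcripts, and a gene with more starts has more places at which a peak can be counted.

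Between pairs of libraries, the bp covered over each gene and its 10 kb flanks were compared, and a gene was counted as lower or higher at a 2-fold difference with at least 500 bp in the higher library. From ESC to MEF 5 of the 9 genes were lower (40% of 18287 genes tested) and none higher (17.8%). The lower ones were Uhrf1 (19597 to 2512 bp), Dnmt3l (13599 to 2571 bp), Dnmt1 (38627 to 9114 bp), Tet2 (12625 to 4690 bp) and Dnmt3b (5216 to 2474 bp). From ESC to brain 3 were lower (31%) and 1 higher (18.3%) of 17888 tested. Uhrf1 (19597 to 2090 bp), Dnmt3l (13599 to 3902 bp) and Dnmt1 (38627 to 12027 bp) were lower, and Tet3 was higher (24143 to 51891 bp). From ESC to liver 4 were lower (33.4%) and 2 higher (23%) of 17957 tested. Tet1 was 17.8-fold lower (27510 to 1546 bp), Dnmt1 4.72-fold (38627 to 8192 bp) and Uhrf1 2.90-fold (19597 to 6761 bp), Dnmt3l had no covered base in liver, and Tet3 (24143 to 66802 bp) and Dnmt3b (5216 to 10680 bp) were higher. Only Dnmt1, Dnmt3l and Uhrf1 were lower in all 3 of these comparisons, which share the ESC library. The share of all genes lower in all 3 was not computed, so this count has no background.

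The 2 libraries of ESC without knockdown show how far lists of the same line can differ. From ESC to shGFP, Uhrf1 (19597 to 6347 bp) and Tdg (4067 to 1626 bp) were at least 2-fold lower (27.6% of 17762 genes tested) and none was higher (4.84%), with a median ratio of 0.579 over the 9 genes and 0.636 over all genes. Of the 162 ESC peaks of the members, 53.7% met a peak in shGFP (56.3% over all protein-coding genes), and of the 127 shGFP peaks 77.2% met a peak in ESC (79.0%).

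From shGFP to shSuz12, Dnmt3b (6260 to 2353 bp) and Dnmt3l (12258 to 4537 bp) were at least 2-fold lower (25.6% of 17483 genes tested) and none of the 9 was higher (6.92%). The median ratio was 0.708 over the 9 genes and 0.669 over all genes, so the members and all genes had close medians. Tdg alone had more covered bp in shSuz12 (1626 to 1910 bp), all of it from peaks that scored under 80 in shSuz12. The other 6 genes had ratios of 0.565 (Tet3), 0.687 (Tet2), 0.708 (Uhrf1), 0.738 (Dnmt3a), 0.750 (Tet1) and 0.889 (Dnmt1). With the bp covered in shSuz12 divided by the median ratio of all genes, neither Dnmt3b nor Dnmt3l passed 2-fold, and Tet1, Tet2, Dnmt1, Dnmt3a and Uhrf1 had more covered bp in shSuz12 than in shGFP. The shSuz12 list had the least covered sequence of the 6, and at a common score of at least 80 all 9 genes were lower, as were 85.3% of all genes tested, so a lower value at single genes cannot be told apart from that of the whole list. Of the 127 shGFP peaks of the members 48.8% met a peak in shSuz12 (52.0% over all genes).

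**Figure D5:**
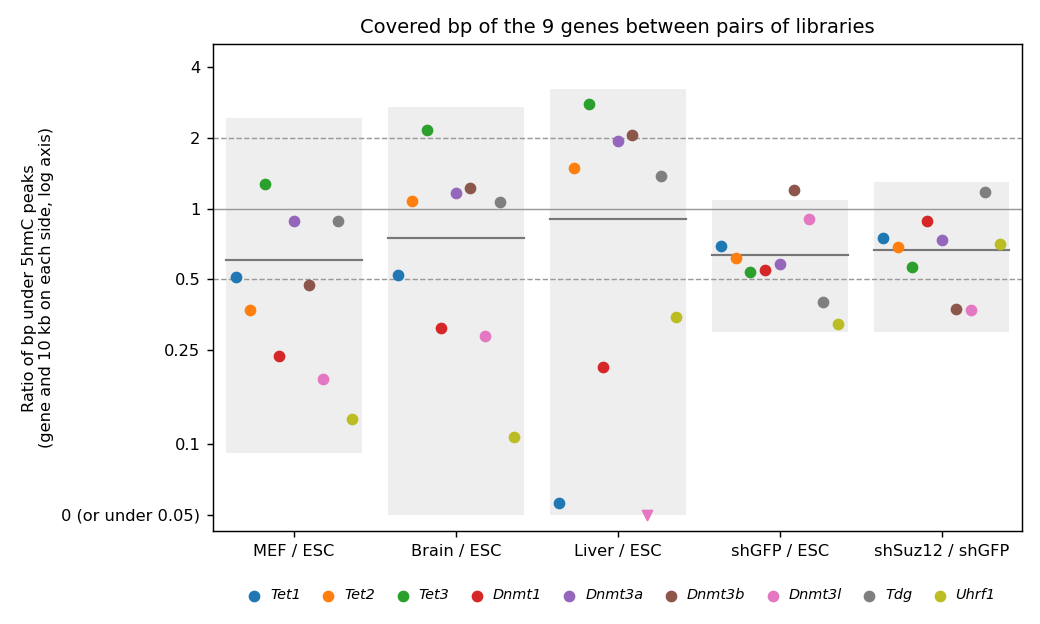
Ratio of bp under peaks, second library over first (vertical log axis, with 0 drawn at the lower edge), for the 9 genes in 5 pairs of libraries. Grey boxes span the 10th to 90th percentile of all genes tested, drawn down to the lower edge where the 10th is 0, the grey line is their median and dashed lines mark 2-fold: in the pair shSuz12 and shGFP the members lay inside the box, 2 of them below the dashed line.

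Merging the overlapping peaks of the 6 lists gave 218 regions over the 9 genes. Of these, 102 had peaks in ESC and differentiated libraries alike, 64 in ESC libraries alone and 52 in differentiated libraries alone. All 6 libraries met in 20 regions: 11 at Dnmt3a, 6 at Tet3, and 1 each at Tet2, Dnmt1 and Tdg. All 3 ESC libraries and no other met in 12 regions, of which 5 were at Dnmt1, 2 each at Tet1, Dnmt3l and Uhrf1, and 1 at Tdg. The 5 at Dnmt1 included exons 13 to 18, the place of its highest ESC score (2511). All 3 differentiated libraries and no other met in 7 regions, 6 at Tet3 and 1 at Dnmt3a (71249 to 73186 bp, liver score 283). At Tet1, 20 of 35 regions were in ESC libraries alone and 2 in differentiated libraries alone, and at Uhrf1 9 of 18 and 0 of 18. Regions were not formed over all protein-coding genes. These counts, and those given above for single genes, therefore have no background share and do not show a trait particular to the members.

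Pooled over the members, exons were covered more than introns in each library. The covered percentage of exonic and intronic sequence was 54.2 and 26.2% in ESC, 38.0 and 23.8% in brain, 35.3 and 30.9% in liver, 28.3 and 15.5% in shGFP, 22.0 and 11.3% in shSuz12, and 18.8 and 18.1% in MEF. The ratio was 2.07 in ESC, 1.04 in MEF, 1.60 in brain, 1.14 in liver, 1.82 in shGFP and 1.95 in shSuz12. Over all protein-coding genes it was 2.53, 1.17, 1.64, 1.84, 2.63 and 2.55, so the members had a smaller excess on exons in each list. For MEF the pooled exons were covered less than the introns, at ratios of 0.803 to 0.928, when low-scoring peaks were left out. Single members could differ from the pooled value. Tdg exons were covered less than its introns in every library (12.1 and 21.9% in ESC). The same held, among others, for Dnmt3b in ESC (0 and 8.22%) and Dnmt1 in MEF (0 and 14.8%).

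Sequence under the peaks was richer in CpG than the rest of the members' windows. It held 1.77 CpG per 100 bp in ESC against 1.18 outside the peaks, 1.56 against 1.30 in MEF, 1.59 against 1.27 in brain, 1.45 against 1.30 in liver, 1.90 against 1.24 in shGFP and 1.98 against 1.26 in shSuz12. The excess was 1.495-fold in ESC, 1.54-fold in shGFP and 1.57-fold in shSuz12, and 1.12- to 1.26-fold in the differentiated libraries. Over the windows of all protein-coding genes it was larger, 2.12- to 2.21-fold in the ESC libraries and 1.60- to 1.73-fold in the others. Peaks of the ESC libraries thus differed more in CpG from their surroundings than those of the differentiated libraries, at these genes and over all genes.

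Among the members, the rank of cover over the 6 libraries was most alike for Tet3 and Dnmt3a (mean absolute difference 5.18 percentile points), Tet2 and Dnmt3b (5.39), Tet2 and Tdg (10.3), and Dnmt1 and Uhrf1 (11.3), and least alike for Tet3 and Dnmt3l (35.6). Among all protein-coding genes with a peak in at least 4 libraries, those closest to Tet3 were Foxo1 (1.60 points) and Tbc1d2b (1.83), and those closest to Dnmt3a were Arid1a (1.12) and Tns1 (1.14). Closest to Dnmt1 were Tcof1 (1.61) and Kcnn1 (1.67), and to Uhrf1 Il27ra (3.32) and Mag (3.73). Closest to Tet1 were Syt7 (1.70) and Pla2g5 (1.803), to Tet2 Asxl1 (1.88) and Lig3 (2.21), to Dnmt3b Rchy1 (1.63) and 2010321M09Rik (2.80), to Dnmt3l Dlgap3 (1.77), and to Tdg Clcn3 (2.44) and Gpr155 (2.73). These likenesses are over 6 libraries, 3 of them from the same cell line, and are given as a description.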

How the data were processed

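The 6 GLIB-Seq libraries (5hmC), 1 for each condition, were grouped as labelled. The authors aligned the reads to mm9 with Bowtie, kept unique hits, collapsed duplicates and ran MACS on each library to call peaks. The submitters' processing notes name CASAVA 1.8, Bowtie 0.12.7 and MACS 1.4.1, and the control and threshold of each list are not given in the sources used here. The deposited score of each peak was read as the negative log10 of the p-value, multiplied by 10. The lists hold no read counts, so depth is unknown and no error could be given. The 2 RNA-Seq samples were not analysed here.

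Peaks on the nuclear chromosomes (1 to 3 mitochondrial peaks per list were left out) were intersected with the 22367 protein-coding genes of the GENCODE annotation of NCBIM37, the assembly also called mm9. Peaks were counted as in a window, 10 kb on either side of the gene, at an overlap of at least 1 bp. Cover is the percentage of the gene span under peaks. Genes with at least 500 bp covered in either of 2 libraries were compared at 2-fold. Named genes were the 9 members, the highest and lowest 2 of a second list of 26 genes of demethylation and methyl-CpG reading, the 2 genes most like each member (1 of these is not reported here), and neighbours in a window. The members, lists and settings were chosen with earlier results of these data known. Sequences are up to 300 bp around the middle of the highest-scoring peak of Tet1, Dnmt3a and members whose promoter peaks differed between libraries, for at most 6 genes. That of Dnmt3l was left out because 141 of its bases were exonic but not coding. The percentile split between ESC and differentiated libraries was added after the values had been seen. The steps were tested on simulated peaks. Alternatives were other score limits, flanks, promoter widths, folds, overlaps and a scaling by the median ratio. Python 3.11.15, numpy 2.4.6 and matplotlib 3.10.9 were used.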

Additional observations from a re-analysis of the deposited data

How the results depend on the processing

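Of 188 counts and ratios recomputed under an alternative, 142 stayed within 1.5 times of the value reported, 43 moved further and 3 changed direction. Of 576 values of single genes, 410 stayed within 1.5 times, and 166 moved further. These include 360 differences in covered bp between libraries, of which 23 changed sign, all at genes not called at 2-fold: 0 of 152 values of called genes changed sign and 23 of 208 of the others. Among them were Tet3 from ESC to MEF (6445 to -7732 bp at a score of at least 80), Dnmt3a from ESC to brain (6662 to -23828 bp at a score of at least 80) and from ESC to MEF (-4735 to 18821 bp after scaling). The other folds and the limit of 1000 bp change only the call. Differences in covered bp could not move under them, yet they count among the values that stayed. A score of at least 80 also leaves the ESC and liver lists as they were. Alternatives that keep fewer peaks lower the number of peaks by construction, and for the other changes the cause was not tested.

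With only scores of 80 or more, the members held 43 peaks in MEF, 33 in brain, 69 in shGFP and 21 in shSuz12. With the highest 50% of scores of each list they held 83 in ESC, 56 in MEF, 66 in brain, 84 in liver, 58 in shGFP and 53 in shSuz12, and with equal numbers of peaks 64 in MEF. The members with a promoter peak numbered 0 in MEF within 500 bp of the TSS, 0 in MEF and 1 in shSuz12 by the midpoint of the peak, 5 in liver within 2 kb, and 1 in liver with the highest 50% of scores. At any annotated start they numbered 8 in ESC, 7 in MEF, 7 in brain, 6 in liver, 7 in shGFP and 8 in shSuz12. The exon to intron ratio in MEF was 0.928 at a score of at least 80, 0.844 with the highest 50% of scores and 0.803 with equal numbers of peaks, and in brain it was 2.81 at a score of at least 80.

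At 3-fold, 3 members were lower in MEF, 0 higher in brain, 0 higher in liver and 1 lower in shGFP than in ESC, and 0 lower in shSuz12 than in shGFP. At 1.5-fold 6 were lower in shGFP than in ESC. After scaling by the median ratio of all genes, 3 were lower and 1 higher in MEF, 0 lower in shGFP, and 0 lower in shSuz12 than in shGFP. Over the gene span alone, 0 were higher in brain and 1 was lower in shSuz12 than in shGFP. At a score of at least 80, 7 were lower and 0 higher in brain, 7 lower in shGFP, and 9 lower in shSuz12 than in shGFP, and with the highest 50% of scores 4 were lower in shSuz12 than in shGFP. Regions in all 6 libraries numbered 2 at a score of at least 80 and 5 with the highest 50% of scores, and regions in 1 library 100 at a score of at least 80.

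No paired analysis was possible because there was 1 library for each condition. Depth is unknown, so a missing peak does not show that 5hmC was absent, and differences between libraries have no replicate check.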

Other observations

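A second list held 26 further genes of active demethylation, base excision repair and methyl-CpG reading. Their median percentile of cover was 74.9 in ESC, 53.6 in MEF, 65.3 in brain, 76.1 in liver, 69.8 in shGFP and 66.9 in shSuz12. A peak lay within 1 kb of the TSS at 12 of them in ESC (31.9% of all protein-coding genes), 12 in MEF (30.1%), 5 in brain (20%), 13 in liver (29.4%), 10 in shGFP (27.1%) and 8 in shSuz12 (21.4%). The highest mean percentile was that of Ung, the uracil-DNA glycosylase, at 92.9, with a cover of 57.5% in ESC, 40.7% in MEF, 38.7% in brain, 58.3% in liver, 41.5% in shGFP and 41.8% in shSuz12. Zbtb38, which encodes a methyl-CpG binding zinc finger protein, followed at 91.2, with a cover between 21.6% (shSuz12) and 53.7% (ESC). The lowest were Zbtb33, the gene of the Kaiso protein, without cover in any library, and Mbd4, a glycosylase that acts on deaminated methyl-CpG, with cover in shSuz12 alone (4.39%).

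Between libraries, 12 of the 25 genes of this list that could be compared were at least 2-fold lower in MEF than in ESC (40% of all genes) and 1 was higher (17.8%). In brain 7 of 25 were lower (31%) and 2 higher (18.3%), and in liver 5 of 24 were lower (33.4%) and 5 higher (23%). From ESC to shGFP 6 of 24 were lower (27.6%) and 1 higher (4.84%), and from shGFP to shSuz12 6 of 22 were lower (25.6%) and 1 higher (6.92%).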
